A study of Mus musculus with 24 samples.

Results

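The 9 genes described here place, read or remove DNA methylation: Uhrf1, Uhrf2, Dnmt1, Dnmt3a, Dnmt3b, Tet1, Tet2, Tet3 and Hells. They were listed by name, with earlier results of these data known, from a table of 24421 genes. All 9 were among the 14205 genes with enough counts to be tested. Bulk RNA-seq measured transcripts in blood stem and progenitor cells of male C57BL/6 mice, sorted from marrow enriched for cells carrying CD117, the receptor Kit. All sorted cells lacked lineage markers and carried Sca1 and Kit. Long-term hematopoietic stem cells (LT-HSC) carried CD150 without CD48, multipotent progenitors (MPP) carried CD48 without CD150, and the short-term stem cells (ST-HSC) carried neither. Each population came from 4 young mice aged 12 weeks and 4 aged mice aged 107 weeks, which gave 6 groups of 4 libraries. No treatment or transgene is named for any group. No label ties a library number to a mouse, so p-values measure the spread between libraries.

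Methylated cytosines in CpG pairs are copied to the new DNA strand behind the replication fork. Uhrf1 binds the half-copied sites and brings in Dnmt1, the maintenance methyltransferase, and Hells, a chromatin remodelling ATPase, gives the machinery access to packed chromatin. Dnmt3a and Dnmt3b set new methylation, and the Tet dioxygenases oxidise methylated cytosine as the first step of its removal. In blood, DNMT3A and TET2 are the genes most often mutated in the clones that expand with age, and loss of Dnmt3a or Tet2 in mouse stem cells raises their self-renewal.

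Levels are CPM, read counts scaled to library size with TMM factors, and are given as mean ± SD over 4 libraries. Changes are log2 differences tested with edgeR (quasi-likelihood), with p adjusted by Benjamini-Hochberg over all 14205 genes, and a gene was called at an adjusted p under 0.05. Library totals ran from 7307151 to 12946550 counts. The sort genes followed the gates: Slamf1, which encodes CD150, had means of 26.2 and 72.1 CPM in young and aged LT-HSC and under 1 CPM in each other group, and Cd48 rose from LT-HSC to MPP at both ages. Young LT-HSC library 1 stood apart, with the myeloid gene Mpo at 682 CPM against at most 3.86 CPM in the other 3. Aged ST-HSC libraries 2 and 3 held 1528 and 284 CPM of granulocyte genes. Young ST-HSC library 4, at 278 CPM, and an aged MPP library, at 318 CPM, were near the latter level and were kept. Mpo was at 2287, 842, 1631 and 105 CPM in aged ST-HSC libraries 1 to 4, against 54.5 to 77.8 CPM in young ST-HSC. Aged ST-HSC library 1, the highest of these, was kept too. The choice of the 3 libraries thus follows no single cutoff, and it leaves only libraries 1 and 4 in aged ST-HSC. Calls that change without these 3 libraries are given with both values. In bulk samples, fewer cells of a kind and less RNA per cell cannot be told apart.

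Most of the 9 genes were lower in aged than in young LT-HSC. In LT-HSC 8 of 9 were called, 7 lower and 1 higher in aged cells, where 18.9% of all tested genes were called, 8.87% lower and 9.98% higher. The 3 maintenance genes made the large changes: Uhrf1 fell to 0.207 of its young level, Hells to 0.273 and Dnmt1 to 0.530. The 4 smaller falls were those of Dnmt3b, Dnmt3a, Tet3 and Uhrf2, Tet2 rose, and Tet1 did not pass. The median log2 change of the 9 genes was -0.38, beside 0.00 over all tested genes. In MPP 2 of 9 were called, Tet1 and Uhrf2, both lower, where 9.79% of all genes were called and 4.27% lower; 6 had an unadjusted p under 0.05, and the median of the 9 was -0.21. In ST-HSC 0 of 9 were called by edgeR, DESeq2 or limma-voom, where edgeR called 5.79% of all genes. There 4 genes had an unadjusted p under 0.05, namely Uhrf2, Dnmt3a, Tet1 and Tet3, and the median was -0.19. Dnmt3a had the largest edgeR p of those counted this way, 0.0347 in ST-HSC and 0.0450 in MPP. By p it ranked 2324 and 3240 among the 14205 tested genes. Many other genes thus also had an unadjusted p under 0.05, and the shares of all genes given here are for adjusted calls only.

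**Figure D1:**
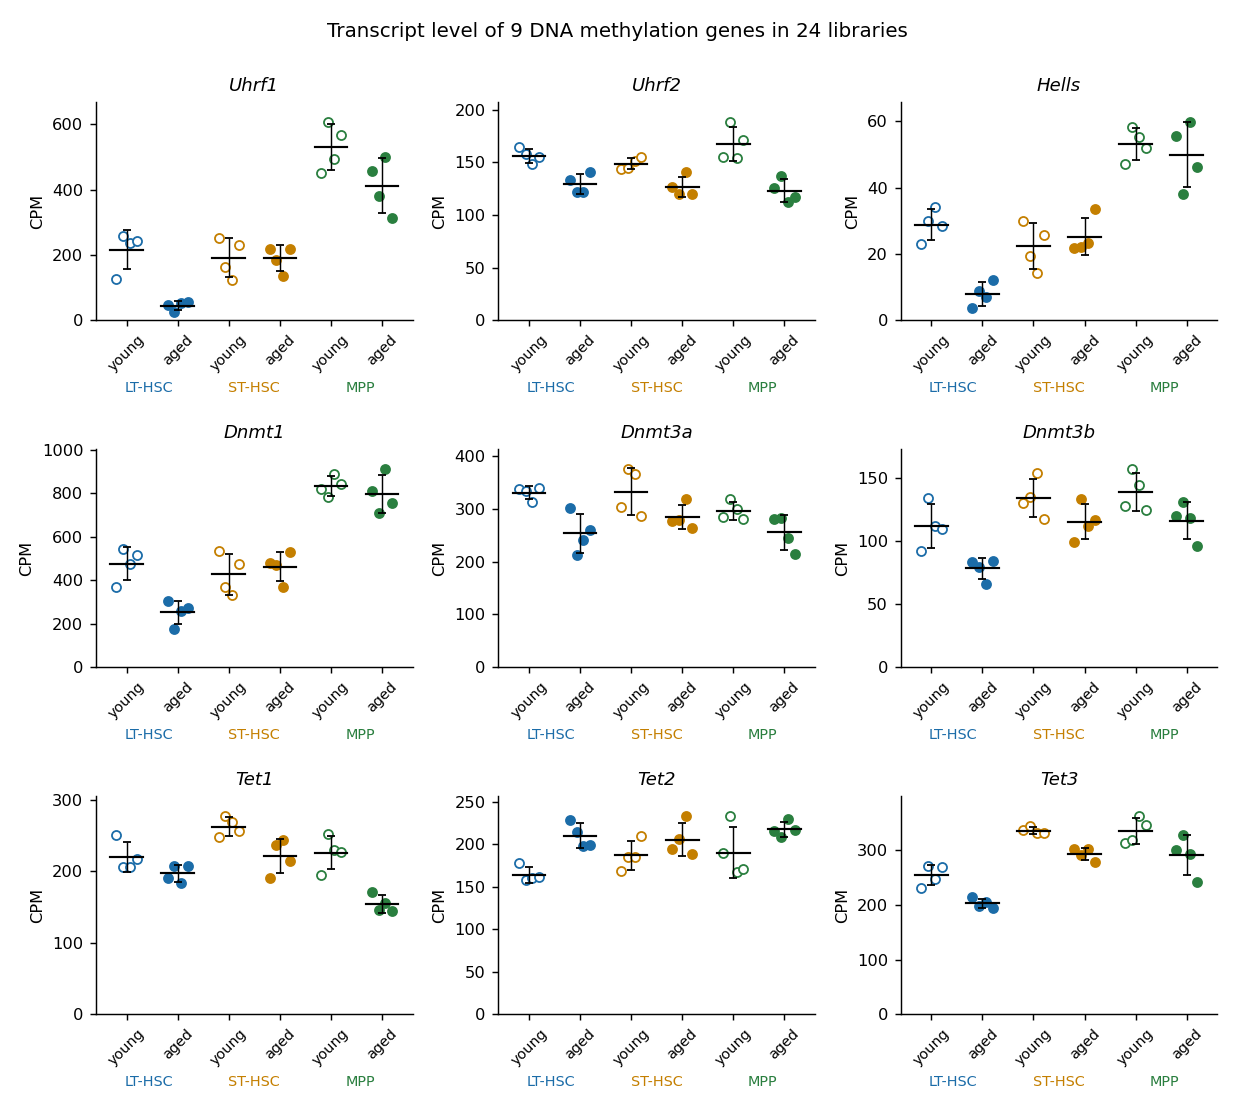
Level of each gene in CPM (vertical axes, from 0) in 24 libraries, as 1 point per library with group mean and SD bars; open points are young and filled points aged. Aged LT-HSC hold the lowest Uhrf1, Hells and Dnmt1 values, and both MPP groups the highest.

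**Figure D2:**
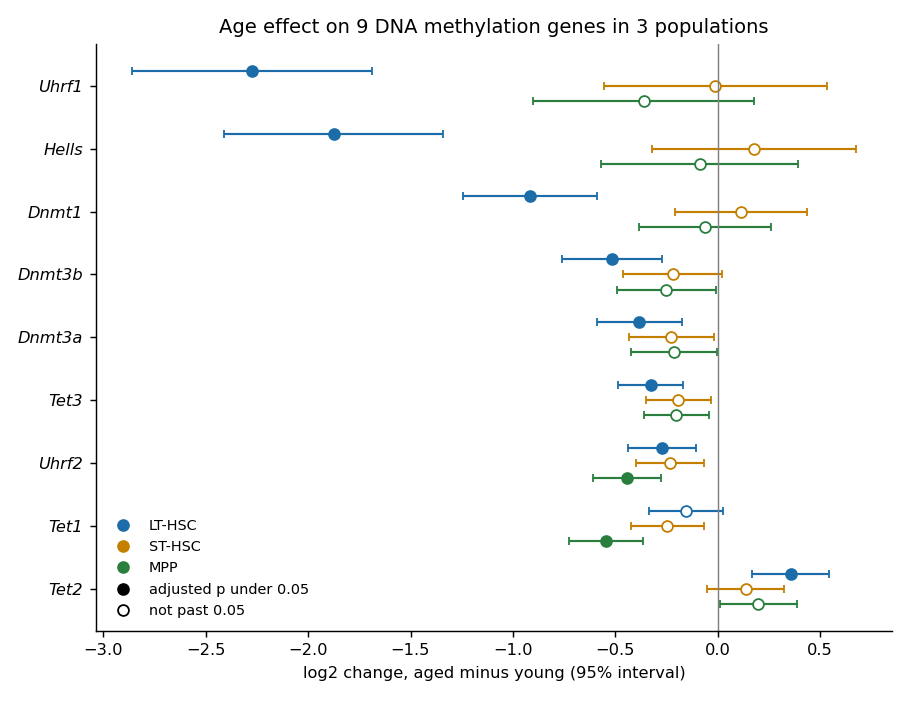
Log2 change from young to aged cells (horizontal axis, with 95% interval) of each gene in LT-HSC, ST-HSC and MPP; filled points passed an adjusted p of 0.05. Filled points are 8 in LT-HSC, 0 in ST-HSC and 2 in MPP, and Uhrf1 and Hells in LT-HSC lie farthest from 0.

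Sequence around start sites of the 3 maintenance genes is shown first, because a search of promoter windows found the same kind of match in Uhrf1, Dnmt1 and Hells. Start-site windows of 300 bases, from 250 before to 50 after each start, came from RefSeq on GRCm38.p6, and all 9 genes matched by symbol, with 14 windows. Sites of the form bound by E2F factors, the regulators of the G1 to S transition, were looked for on both strands as TTTGGCGC, TTTCCCGC, TTTGCCGC and TTTCGCGC. A match stood in 3 of the 9 genes, Uhrf1, Dnmt1 and Hells, in 2.6% of 27025 genes with a window, and in 14 of 44 S phase genes. The matches below are in capitals, printed 5′ to 3′ on the strand of the gene, and did not overlap each other. Uhrf1 lies at chr17:56303321-56323486 (plus strand), Dnmt1 at chr9:20907209-20959888 (minus strand) and Hells at chr19:38930915-38971051 (plus strand) in mm10. The Uhrf1 stretch is chr17:56304102-56304161, with the match starting 185 bases before a start site and outside annotated exons. The Dnmt1 stretches are chr9:20952824-20952853 and chr9:20952574-20952601, 219 bases before and 33 after a start site, and the Hells stretch is chr19:38930917-38930946, 62 bases before. The Dnmt1 and Hells stretches lie in annotated exons of these genes. The first Dnmt1 match reads on the opposite strand.
Uhrf1: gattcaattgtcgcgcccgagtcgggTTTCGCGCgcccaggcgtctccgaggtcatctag
Dnmt1 before the start: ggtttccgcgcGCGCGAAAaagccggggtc
Dnmt1 after the start: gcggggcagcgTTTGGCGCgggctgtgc
Hells: gaccaccgggtTTTCCCGCgaaagagaagc
The windows of the 9 genes were rich in CpG, with a median observed-to-expected ratio of 0.76 beside 0.384 over all 32851 windows. A match is a description of letters, not a binding site, and its absence from the other 6 genes covers only these spellings in these windows.

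Uhrf1 had the widest range of the 9 genes, 11.9-fold between its highest and lowest group means. In young LT-HSC libraries 1 to 4 it stood at 128, 257, 237 and 242 CPM, and in aged LT-HSC at 47.1, 25.3, 52.2 and 54.6 CPM. Every aged library lay below every young one, also below young library 1, which was the low one of its group. The mean went from 216 ± 59.6 to 44.8 ± 13.4 CPM, a fall by 2.27 on the log2 scale (SE 0.28, adjusted p = 9.67e-06). Without young library 1 the fall was by 2.46. In ST-HSC the young libraries held 252, 163, 124 and 229 CPM and the aged ones 219.7, 185, 135 and 219 CPM. The groups overlapped throughout, and the change was -0.01 (95% interval -0.56 to 0.53, adjusted p = 0.989). Young MPP held 452, 608, 495 and 568 CPM and aged MPP 457, 380.4, 501 and 313 CPM, which also overlapped (log2 change -0.36, 95% interval -0.90 to 0.18, adjusted p = 0.427). The age effect in LT-HSC itself differed from that in ST-HSC by -2.26 (SE 0.38, adjusted p = 0.00163) and from that in MPP by -1.91 (SE 0.38, adjusted p = 0.00280). Both differences use the same LT-HSC libraries.

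Hells was the scarcest of the 9 and followed a like course. It held 23.0, 29.9, 34.3 and 28.4 CPM in young LT-HSC and 3.63, 8.74, 6.89 and 12.2 CPM in aged LT-HSC. The groups did not overlap, and the lowest aged library rested on 30 counts, so counting error alone gives it a coefficient of variation of 18.3%. Hells fell by 1.87 on the log2 scale (SE 0.26, adjusted p = 1.18e-05). In ST-HSC it stood at 29.9, 19.4, 14.3 and 25.8 CPM when young and 21.8, 22.0, 23.2 and 33.5 CPM when aged, and in MPP at 47.1, 58.2, 55.4 and 51.9 and at 55.7, 38.1, 59.8 and 46.3 CPM. Young and aged values overlapped in both populations, with log2 changes of 0.18 (95% interval -0.32 to 0.68) and -0.09 (-0.57 to 0.39). The LT-HSC effect differed from the ST-HSC effect by -2.05 (adjusted p = 0.00104) and from the MPP effect by -1.79 (adjusted p = 0.00146).

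Dnmt1, the maintenance enzyme, had a smaller log2 fall in LT-HSC than Uhrf1. Its LT-HSC values were 369.8, 541, 473 and 517 CPM in young and 303, 177, 256 and 271 CPM in aged libraries. All 4 aged values lay below all 4 young ones, and the mean went from 475 ± 75.8 to 252 ± 53.4 CPM, a fall by 0.92 (SE 0.16, adjusted p = 0.000250). In ST-HSC the values were 532, 367, 333 and 476 CPM against 477, 469.6, 371 and 529 CPM, and in MPP 818, 783, 888 and 843 CPM against 812, 709.8, 911 and 757 CPM. Both pairs of groups overlapped, with changes of 0.11 (95% interval -0.21 to 0.44) and -0.06 (-0.39 to 0.26). The LT-HSC effect differed by -1.03 from that in ST-HSC (adjusted p = 0.00961) and by -0.85 from that in MPP (adjusted p = 0.0162). In all, the age effect differed between LT-HSC and ST-HSC for 3 of the 9 genes, where 4.05% of all genes differed and 2.39% in the same direction, and between LT-HSC and MPP for 4 of 9, the 3 maintenance genes and Tet1, where 9.93% differed, 4.89% with the lower and 5.05% with the higher value in LT-HSC. Between ST-HSC and MPP it differed for 0 of 9 by edgeR, DESeq2 and limma-voom, where edgeR called 0.465% of genes and 1 of the 9, Tet1, had an unadjusted p under 0.05.

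The log2 ratio of Uhrf1 to Dnmt1 within a library, chosen for description after the values were seen, was -1.18 ± 0.24 in young and -2.53 ± 0.26 in aged LT-HSC. It was -1.18 ± 0.17 and -1.30 ± 0.14 in ST-HSC, and -0.66 ± 0.23 and -0.97 ± 0.21 in MPP. The aged LT-HSC ratios, from -2.81 to -2.30, thus lay below those of every other group, whose lowest library was at -1.54.

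Uhrf2, a relative of Uhrf1 with the same arrangement of domains, had a narrow range, 1.36-fold between group means, and lower means in all 3 aged populations. It lies at chr19:30030513-30093722. LT-HSC held 165, 157, 149 and 155 CPM when young and 134, 121, 122 and 141 CPM when aged, with no overlap. Uhrf2 fell there by 0.27 (SE 0.08, adjusted p = 0.0186), and the adjusted p was 0.0509 without aged LT-HSC library 3. MPP held 155, 188, 154 and 172 CPM against 126, 137, 112 and 117 CPM, again with no overlap, and Uhrf2 fell by 0.44 (SE 0.08, adjusted p = 0.000670). ST-HSC held 144, 145, 151 and 155 CPM against 126, 120.1, 140.4 and 119.7 CPM, which did not overlap either, but the change of -0.23 did not pass (SE 0.08, adjusted p = 0.0885). The age effect on Uhrf2 was not shown to differ between populations, with differences of -0.04 (95% interval -0.27 to 0.20) for LT-HSC against ST-HSC, 0.17 (-0.06 to 0.41) for LT-HSC against MPP and 0.21 (-0.03 to 0.44) for ST-HSC against MPP.

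The de novo enzymes changed less than the maintenance genes. Dnmt3a, at chr12:3806007-3914443, had 338, 333, 312 and 340.2 CPM in young LT-HSC and 301, 213, 241 and 261 CPM in aged LT-HSC. Aged library 1 came closest to the young values without reaching them, and Dnmt3a fell by 0.38 (SE 0.10, adjusted p = 0.00869). In ST-HSC it held 304, 376, 366 and 286 CPM against 276, 279.5, 319 and 264 CPM, and in MPP 285, 318, 300.3 and 282 CPM against 280.1, 283, 244 and 214 CPM. Both overlapped, and the changes of -0.23 (adjusted p = 0.212) and -0.21 (adjusted p = 0.197) did not pass. Its group means spanned only 1.31-fold, the least of the 9, and each neighbour in their order overlapped the next. Of its exonic bases, 0.8% are shared with the antisense gene Dnmt3aos, and the strand setting of the counting is not known, so the reads may not be parted.

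Dnmt3b, at chr2:153649450-153687730, held 92.3, 134, 112 and 109.6 CPM in young LT-HSC and 83.1, 79.5, 66.2 and 84.6 CPM in aged LT-HSC. All aged values lay below the young ones, and Dnmt3b fell by 0.51 (SE 0.12, adjusted p = 0.00280). ST-HSC had 130.3, 135, 154 and 118 CPM against 99.5, 133, 112 and 117 CPM, and MPP 128, 157, 144 and 125 CPM against 119.7, 131, 118 and 96.1 CPM. These overlapped, with changes of -0.22 (adjusted p = 0.304) and -0.25 (adjusted p = 0.187). The Dnmt3a to Dnmt3b log2 ratio, chosen after the values were seen, was 1.58 ± 0.24 in young and 1.69 ± 0.21 in aged LT-HSC, 1.31 ± 0.11 and 1.31 ± 0.22 in ST-HSC, and 1.10 ± 0.07 and 1.13 ± 0.08 in MPP, with overlap between the ages in each. For neither enzyme was a difference of age effects between populations called, the largest being -0.29 for Dnmt3b in LT-HSC against ST-HSC (95% interval -0.64 to 0.05).

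Among the erasers, Tet2 rose and Tet3 fell with age in LT-HSC, and Tet1 fell in MPP. Tet2, at chr3:133463679-133545139, was the only one of the 9 called higher in aged cells. It stood at 178, 158, 159.8 and 161 CPM in young LT-HSC and 228, 215, 198 and 199 CPM in aged LT-HSC, with no overlap, and rose by 0.36 (SE 0.09, adjusted p = 0.00709). In ST-HSC the values were 168, 185, 185 and 209.5 CPM against 195, 206, 233 and 188 CPM, and in MPP 189, 233, 167 and 171 CPM against 216, 208, 229.6 and 217 CPM. Each pair overlapped, and the changes of 0.14 (adjusted p = 0.445) and 0.20 (adjusted p = 0.187) did not pass. In MPP young library 2 was the high one, and without it Tet2 changed by 0.31 with an adjusted p of 0.0283. The 3 aged means were the 3 highest of the 6 groups, although neighbours in that order overlapped. The antisense model Gm42567 shares 0.25% of its exonic bases.

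Tet3, at chr6:83362373-83459084, held 232, 271, 248 and 269 CPM in young LT-HSC and 214, 198, 205 and 195 CPM in aged LT-HSC. The groups did not overlap, and Tet3 fell by 0.33 (SE 0.08, adjusted p = 0.00347). In ST-HSC the young libraries were tightly grouped at 337, 344, 331 and 332 CPM, above the aged ones at 303, 292, 302 and 279 CPM, but the change of -0.19 did not pass (SE 0.08, adjusted p = 0.151). MPP held 313, 319, 363 and 347 CPM against 301, 329, 293 and 242 CPM, with a change of -0.20 (adjusted p = 0.0956, or 0.0386 with -0.26 without aged MPP library 2). The log2 ratio of Tet2 to Tet3, also chosen after the values were seen, was higher in the aged libraries on average in all 3 populations. It was -0.63 ± 0.18 in young and 0.05 ± 0.07 in aged LT-HSC, without overlap, and -0.85 ± 0.14 and -0.52 ± 0.11 in ST-HSC, also without overlap. In MPP it was -0.83 ± 0.30 and -0.41 ± 0.21, with overlap.

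Tet1, at chr10:62804570-62908996, was the one member not called in LT-HSC and the one most changed in MPP. LT-HSC libraries had 251, 206, 206 and 217 CPM when young and 190.4, 207, 184 and 208 CPM when aged, which overlapped (log2 change -0.16, 95% interval -0.34 to 0.02, adjusted p = 0.233). MPP had 196, 252, 230.2 and 227 CPM against 172, 146, 157 and 145 CPM. All aged MPP values lay below all young ones, and Tet1 fell by 0.55 (SE 0.09, adjusted p = 0.000160). ST-HSC held 249, 278, 269 and 256 CPM against 191, 237, 245 and 214 CPM, without overlap, and the change of -0.25 did not pass (SE 0.09, adjusted p = 0.0994). Without the 3 libraries that stood apart, the ST-HSC change was -0.38 with an adjusted p of 0.0328. Only aged libraries 1 and 4 remained there. The aged ST-HSC libraries left out held the highest aged Tet1 values, 237 and 245 CPM, so the larger fall follows from leaving them out. The Tet1 age effect differed between LT-HSC and MPP by 0.39 (SE 0.12, adjusted p = 0.0429), a call that was lost in 17 of 25 alternative settings, with an adjusted p of 0.0723 in the fit with a replicate block.

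Markers of other cells moved with age beside these results. In LT-HSC the summed T and NK list went from 35.6 to 54.4 CPM in young to 85.1 to 133 CPM in aged libraries, with Cd3e, Cd3g, Cd8a and Ncr1, 4 of its 10 genes, at 0 in all aged libraries and most of the aged level from Klrb1c. The monocyte list went from 58.6 to 84.7 CPM down to 27.9 to 41.8 CPM, with Ccr2, 1 of its 10 genes, at 0. In ST-HSC the T and NK list ran from 86.2 to 107 CPM in young and 181 to 238 CPM in aged libraries, with 5 and 3 of 10 genes at 0. The monocyte list there ran from 28.8 to 50.7 and from 132 to 537 CPM, with none of 10 at 0. In MPP the B and plasma cell list ran from 71.0 to 389.8 CPM in young and from 1875 to 9272 CPM in aged libraries, with 0 of 9 genes at 0 and most of the aged level from Jchain. The T and NK list in MPP ran from 190.0 to 241 and from 249 to 407 CPM, with 3 and 1 of 10 genes at 0. The hemoglobin genes, 4 of 8 erythroblast genes, were at 0 throughout. The part of these cells in the Uhrf2, Tet1 and other age effects was not tested. In MPP all 4 aged libraries held more of the B and plasma cell list than any young one. Likewise, every aged library held more of the T and NK list than any young one in LT-HSC, ST-HSC and MPP. The monocyte list did not overlap between the ages in LT-HSC, where it was lower in aged libraries, or in ST-HSC, where it was higher. In these populations the level of each such list and age cannot be told apart.

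The maintenance genes were higher in MPP than in either stem cell population at both ages. Among young cells, Uhrf1 was higher in MPP than in ST-HSC by 1.47 (SE 0.26), Hells by 1.25 (SE 0.24) and Dnmt1 by 0.96 (SE 0.16), the 3 of 9 genes called, where 20.6% of all genes were called and 10.1% higher. All 3 had adjusted p of at most 0.000589 and no overlap. Between young ST-HSC and LT-HSC, 1 of 9 was called, where 12.5% of all genes were and 5.74% higher: Tet3 was higher in ST-HSC by 0.40 (SE 0.08, adjusted p = 0.000544). Tet1 was 0.26 higher there with an adjusted p of 0.0524, which became 0.0180 without young LT-HSC library 1 and 0.00996 without the 3 libraries that stood apart, with a difference of 0.33 in both. Between young MPP and LT-HSC, 5 of 9 were called, all higher in MPP, where 37.2% of all genes were called and 18.3% higher. These were Uhrf1 by 1.30, Hells by 0.88, Dnmt1 by 0.81, Tet3 by 0.40 and Dnmt3b by 0.31. The Dnmt3b values overlapped, and its call was lost in 8 of 17 alternative settings, with the adjusted p of 0.0406 becoming 0.162 without young LT-HSC library 1 and 0.111 without the 3 libraries. Tet2 was 0.21 higher in young MPP than in young LT-HSC with an adjusted p of 0.0749, or 0.27 higher with an adjusted p of 0.0270 without the 3 libraries. Its adjusted p was 0.0375 without young MPP library 3 and 0.0436 without young MPP library 4. The Tet1 difference between young MPP and ST-HSC was -0.22 with an adjusted p of 0.0797, or 0.0370 without young MPP library 2.

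Among aged cells the maintenance genes were also higher in ST-HSC than in LT-HSC. There 5 of 9 genes were called, all higher in ST-HSC and none overlapping, where 32.3% of all genes were called and 16.1% higher. Uhrf1 was higher by 2.09 (SE 0.28), Hells by 1.67 (SE 0.26), Dnmt1 by 0.87 (SE 0.16), Dnmt3b by 0.56 (SE 0.12) and Tet3 by 0.53 (SE 0.08). From aged ST-HSC to MPP, 4 of 9 were called where 29.9% of genes were, 14.4% higher and 15.5% lower: Uhrf1 was higher by 1.12, Hells by 0.99, Dnmt1 by 0.79, and Tet1 was lower by a log2 difference of -0.52. Without the 3 libraries that stood apart the Hells difference was 0.87 with an adjusted p of 0.0576. Between aged MPP and LT-HSC, 6 of 9 were called where 56.8% of genes were, 28.5% higher and 28.3% lower, so the count itself says little. Uhrf1 was 9.25-fold higher in aged MPP than in aged LT-HSC, Hells 6.34-fold and Dnmt1 3.17-fold, beside Dnmt3b and Tet3 higher by 0.57 and 0.52 and Tet1 at -0.35. Differences that share a group share its libraries.

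The 6 group means fell in the following orders. For Uhrf1 it ran from young MPP (531 ± 70.0 CPM) and aged MPP (413 ± 83.1) to young LT-HSC (216), young ST-HSC (192), aged ST-HSC (189.9) and aged LT-HSC (44.8). Only 2 neighbouring steps had no overlap, that below aged MPP and that above aged LT-HSC. Dnmt1 and Hells had gaps at the same 2 steps, with aged ST-HSC above young ST-HSC in both. Uhrf2 had 1 gap, between the 3 young groups and the 3 aged groups. Dnmt3b and Tet1 each had 1 gap, above aged LT-HSC and above aged MPP, and Tet3 had 2, below young MPP and above aged LT-HSC. Dnmt3a and Tet2 had none.

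Per kilobase of annotated exon, which is the scale on which genes can be set side by side, Dnmt1 was highest of the 9 in 5 groups, with 64.4 ± 10.3 CPM per kb in young LT-HSC. In young MPP Uhrf1 came first with 124.6 ± 16.4, ahead of Dnmt1 with 113 ± 5.99 CPM per kb. In aged LT-HSC Dnmt1 was at 34.2 ± 7.24 and Uhrf1 at 10.5 ± 3.14 CPM per kb, the eighth of the 9 genes. Hells was lowest in every group, with 1.09 ± 0.50 CPM per kb in aged LT-HSC. The ranks given here were the same with the longest transcript in place of all exons. The annotation used for counting is not given in the sources used here, so the lengths may not be those counted.

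Maintenance methylation runs with DNA replication, so each gene was set beside the summed level of 57 S phase genes, none of them among the 9. The S phase sum was 2969, 4312, 4479 and 4071 CPM in young LT-HSC and 1922, 1492, 1749 and 1813 CPM in aged LT-HSC. The groups did not overlap, and the log2 difference was -1.17 (exact two-sided permutation p = 0.0286, the smallest that 4 against 4 libraries can give). In ST-HSC and MPP the differences were 0.06 (exact permutation p = 0.83) and -0.08 (exact permutation p = 0.343). Gene by gene, 45 of the 57 fell in aged LT-HSC and 0 rose, with a median of -1.16, while 1 rose in ST-HSC, Rfc2 by 0.37 (adjusted p = 0.0161), and 0 were called in MPP. Of the replicative helicase, Mcm3 fell by 1.34 (SE 0.12, adjusted p = 1.79e-08) and Mcm2 fell by 1.74 (SE 0.17, adjusted p = 1.36e-07), and the clamp loader subunit Rfc2 fell by 0.81 (SE 0.09, adjusted p = 5.56e-07). Of 29 G2 and mitosis genes, 2 fell in aged LT-HSC, Ndc80 and Cks2, a share no higher than the 8.87% of all tested genes that fell, and the median was -0.81. The log2 difference of their sum was -1.05 with overlap (exact permutation p = 0.229). That sum varied widely, from 572 to 1140 CPM in young and from 167 to 1109 CPM in aged LT-HSC, so few calls do not show that these genes were unchanged.

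**Figure D3:**
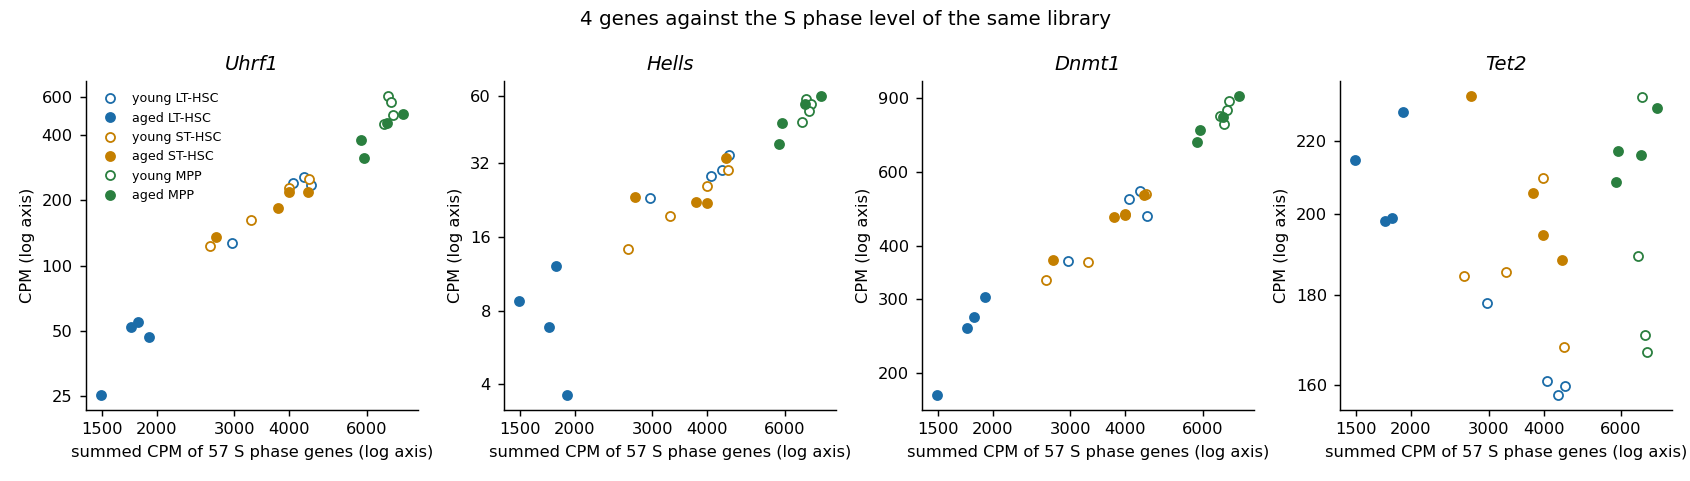
Level of Uhrf1, Hells, Dnmt1 and Tet2 (vertical axes, CPM, log axes) against the summed CPM of 57 S phase genes in the same library (horizontal axes, log), 1 point per library, coloured by population and filled for aged. Uhrf1, Hells and Dnmt1 run along a rising band on which aged LT-HSC lie at the lower left, and Tet2 forms no band.

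Across all 24 libraries, Pearson's r of log2(CPM + 1) with the S phase level was 0.98 for Uhrf1, 0.98 for Dnmt1 and 0.94 for Hells. With group means removed it was 0.89, 0.90 and 0.47. For the other 6 genes r ran from -0.23 for Tet1 to 0.69 for Tet3 over all libraries and from -0.46 to 0.17 within groups. Uhrf1 and Dnmt1 had an r of 0.97 with each other, and 0.89 within groups. These are descriptions over libraries that share population and age, with no test. The genes most like each member, among 9454 with a mean of at least 10 CPM, were Mcm5, Dtl and Chaf1a for Uhrf1 (r = 0.99 each), Chaf1a, Topbp1 and Tuba1b for Dnmt1 (0.99, 0.98 and 0.98), and Rmi2, Pole2 and Alms1 for Hells (0.96, 0.95 and 0.95). For Tet3 they were Gramd1a, Myo1g and Rnf220 (0.93, 0.93 and 0.92) and for Dnmt3b Slx4, Rasal3 and Myo1g (0.89, 0.89 and 0.88). The best match had an r of 0.89 for Tet1 (Gcnt2), 0.87 for Dnmt3a (Srebf2), 0.85 for Uhrf2 (Socs7) and 0.83 for Tet2 (Ankrd28).

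Each gene was also taken as a ratio to the S phase sum of its library. No ratio passed the adjusted test, which could hardly be passed with 4 libraries a group. In LT-HSC the log2 ratio of Uhrf1 was -4.23 ± 0.22 in young and -5.34 ± 0.39 in aged libraries, a difference of -1.11 without overlap. That of Hells was -7.09 ± 0.09 and -7.92 ± 0.82, a difference of -0.82. Its values barely missed overlapping, with the highest aged ratio at -7.22 and the lowest young one at -7.17. Aged library 1, of lowest Hells count, was at -9.05. The ratio of Dnmt1 was -3.05 ± 0.13 and -2.81 ± 0.18, a difference of 0.24 with overlap (exact permutation p = 0.114). The other 6 had higher ratios in aged libraries without overlap, by 0.66 for Dnmt3b, 0.78 for Dnmt3a, 0.85 for Tet3, 0.90 for Uhrf2, 1.02 for Tet1 and 1.53 for Tet2. These 6 had changed by -0.51 to 0.36 themselves, so their higher ratios follow from the S phase sum being lower by -1.17. Each of the 8 differences without overlap had the smallest exact permutation p, 0.0286, which is 0.0857 after adjustment over the 27 tests of 9 genes in 3 populations. The share of all genes without overlap in this ratio was not counted, so the count of 8 says little about these genes. So 0 of 27 passed, and 9 had an unadjusted p under 0.05, the ninth being Tet1 in MPP with -0.47. A pass would have needed most of the 27 tests to reach 0.0286, so 0 of 27 does not show that the ratios were unchanged. With the mean of log2 values over the S phase genes in place of their summed level, the Uhrf1 difference in LT-HSC was -1.17 and that of Dnmt1 0.18. Relative to the G2 and mitosis genes the Uhrf1 difference in LT-HSC was -1.22 with overlap (exact permutation p = 0.114). In ST-HSC it was -0.71 without overlap (exact permutation p = 0.0286, adjusted 0.220). The G2 and mitosis sum itself was higher in aged ST-HSC, by 0.72 on the log2 scale, and Uhrf1 changed there by -0.01. The lower Uhrf1 ratio in aged ST-HSC thus follows from that sum. All 9 genes had lower ratios to it in aged ST-HSC, and that of Dnmt1, at -0.60, did not overlap either.

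**Figure D4:**
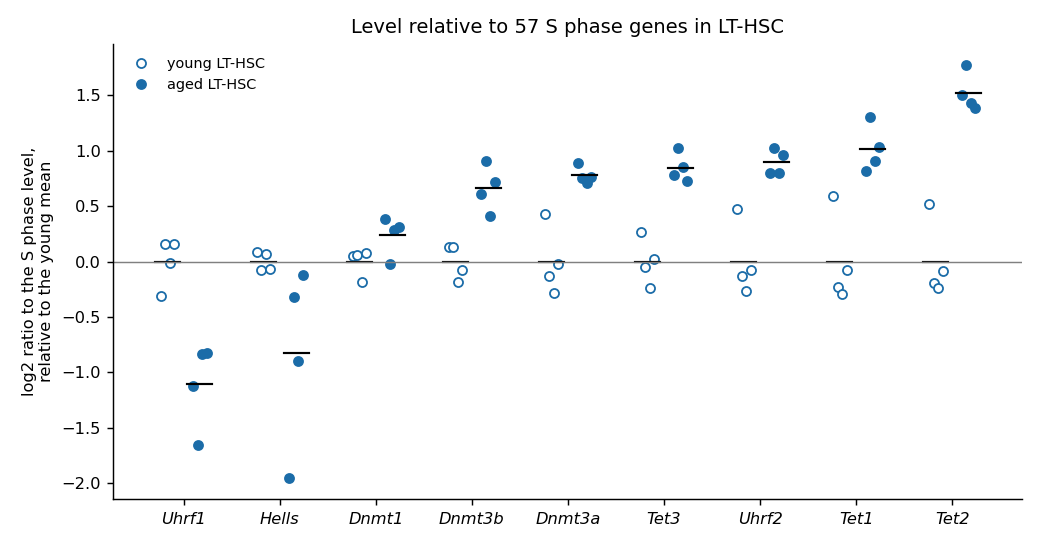
Log2 ratio of each gene to the summed level of 57 S phase genes in the same LT-HSC library, less the young mean (vertical axis), with 1 point per library and bars at group means; open points are young and filled points aged. Uhrf1 and Hells lie below 0 in aged libraries, Dnmt1 overlaps its young values, and the other 6 lie above.

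Genes that work with the 9 were counted from lists of each pathway. Beside these counts, 8.87% of all tested genes were called lower and 9.98% higher in aged LT-HSC, and 4.27% lower in aged MPP, so 1 called gene in a list of 7 or 8 is near the share over all genes. Of 8 tested partners of maintenance methylation, 5 fell in aged LT-HSC and 1 rose, with a median of -0.56. Lig1, the ligase that joins Okazaki fragments, fell by 1.60 (SE 0.23, adjusted p = 3.76e-05), Cdca7, the partner that activates Hells, by 1.11 (SE 0.19, adjusted p = 0.000228), and the related Cdca7l by 0.51 (SE 0.10, adjusted p = 0.000579). Of 5 tested partners of de novo methylation, 2 fell and 2 rose. Ezh2, the Polycomb histone methyltransferase, fell by 0.97 (adjusted p = 5.92e-05), the corepressor Trim28 fell by 0.42 (adjusted p = 9.06e-05), and Zfp57, which guards imprinted methylation, rose by 0.91 (adjusted p = 0.0154) from 9.41 ± 1.45 to 17.7 ± 3.00 CPM. In ST-HSC and MPP 0 genes of these lists were called.

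Of 9 tested genes of active demethylation and base excision, 3 fell and 3 rose in aged LT-HSC. The uracil glycosylase Ung fell by 2.38 (SE 0.26, adjusted p = 4.11e-07), from 28.9 ± 12.3 to 5.51 ± 1.58 CPM. Apex1, which cuts abasic sites, fell by 1.09 (SE 0.26, adjusted p = 0.00405), and the stress gene Gadd45g rose by 1.81 (SE 0.46, adjusted p = 0.00693). Gadd45b rose in all 3 populations, by 0.98 in LT-HSC (adjusted p = 0.0145), 0.93 in ST-HSC (adjusted p = 0.0478) and 1.25 in MPP (adjusted p = 0.00520), at means of 3.11 to 7.42 CPM. It was the only gene of the 7 pathway lists called in ST-HSC.

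Among the methyl-CpG binding proteins, Mbd4 fell by 0.73 in aged LT-HSC and Mbd3 fell by 0.47. Of 8 genes of the S-adenosylmethionine cycle, which supplies the methyl group, 2 fell, Ahcy by 0.65 (adjusted p = 0.00188) and Mtr by 0.29 (adjusted p = 0.0131). Of 7 enzymes of 2-oxoglutarate, the cosubstrate of the Tet enzymes, 1 fell, Idh2 by 0.54 (SE 0.09, adjusted p = 5.99e-05), and in MPP 1 fell, D2hgdh by 0.43 (adjusted p = 0.0205). Of 7 tested CXXC domain genes, 2 fell in LT-HSC, Fbxl19 by 0.78 and Cxxc1 by 0.38, and 1 in MPP, Kmt2a by 0.32 (adjusted p = 0.00364). The medians of the last 3 lists in LT-HSC lay between -0.15 and 0.07.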

How the data were processed

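Whole-number counts per gene symbol were deposited by the authors in 1 table, without normalization as judged from the values. The tools named are HISAT2, Trim Galore and featureCounts, with build mm10, per the submitters' processing notes. For versions, annotation and strand, the sources used here give nothing. Per the labels' protocols, cDNA was primed with not so random primers and libraries were made with Nextera XT, without molecular identifiers.

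Genes passing filterByExpr (14205, holding 99.9% of counts) were scaled with TMM and tested in edgeR 4.0.16 (R 4.3.3) by quasi-likelihood with robust dispersion, with 1 mean for each of 6 groups over all 24 libraries (18 residual degrees of freedom). Tests are two-sided and the threshold is an adjusted p of 0.05. Contrasts were 3 age effects, 3 differences of age effects and 6 population differences. The fit was tested on simulated data. DESeq2 1.42.0, limma-voom (limma 3.58.1), other scaling and filters, a replicate block and leaving out libraries were alternatives. Replicate pairs differed beyond counting noise, so none was counted as a duplicate.

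All 9 genes are described in full. Of each other pathway or cycle list, called genes were counted and up to 3 of smallest p named per age comparison, with Gadd45b in LT-HSC named in addition after its values were seen. Counts of the methyl-CpG binding list are not given, since a result for 1 of its genes is not reported here. Likeness took the 3 genes of highest r, passing over predicted models. Gene positions and exons are from GENCODE vM21. The genes and lists were chosen with earlier results of these data known.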

Additional observations from a re-analysis of the deposited data

Results flagged for a closer look

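Of 54 sets of 4 libraries (9 genes in 6 groups), 3 held a library set far from the other 3 by Dixon's ratio, where chance gives about 1 in 20. Uhrf1 in young LT-HSC library 1 was at 128 CPM (others 237 to 257), Tet2 in the same library at 178 CPM (others 158 to 161), and Hells in aged ST-HSC library 4 at 33.5 CPM (others 21.8 to 23.2). The same young LT-HSC library had the Mpo level given above and the lowest S phase sum of its group, 2969 CPM.

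A test of the difference of age effects passed for 7 of 27 comparisons of the 9 genes, in 3 contrasts that share libraries. Of all tested genes, 4.05% passed for LT-HSC against ST-HSC, 9.93% for LT-HSC against MPP and 0.465% for ST-HSC against MPP. Between LT-HSC and ST-HSC the difference was -2.26 for Uhrf1, -1.03 for Dnmt1 and -2.05 for Hells. Between LT-HSC and MPP it was -1.91 for Uhrf1, -0.85 for Dnmt1, -1.79 for Hells and 0.39 for Tet1. The Tet1 call was lost in 17 of 25 alternative settings.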

How the results depend on the processing

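Over 2052 alternative values of the 9 genes, 2012 kept their direction and side of the threshold, or remained uncalled, 27 lost the call, 13 gained it, and no called value changed sign. The count of called genes between young ST-HSC and LT-HSC was 1 and became 2 with limma-voom, with only the groups compared, without the 3 libraries that stood apart and without young LT-HSC library 1, each time by adding Tet1. In ST-HSC the count with age was 0 and became 1 without the 3 libraries, again Tet1, with only libraries 1 and 4 left in aged ST-HSC. Leaving out each library in turn gave 7 to 8 genes changed with age in LT-HSC, 0 in ST-HSC, 2 to 3 in MPP, and 3 to 4 whose age effect differed between LT-HSC and MPP. For young populations it gave 1 to 2 (ST-HSC against LT-HSC), 3 to 4 (MPP against ST-HSC) and 4 to 6 (MPP against LT-HSC). The replicate numbers were not shown to pair the libraries, nor was pairing excluded. Of 36 same-numbered pairs 11 had a correlation of deviations over 0.1, and in 13 the same number was the best match both ways. The 36 include pairs of young with aged libraries, which cannot share a mouse. With a replicate block the counts were 8 in LT-HSC, 0 in ST-HSC and 2 in MPP, and 3 in place of 4 for LT-HSC against MPP. Without each library in turn, 0 ratios to the S phase genes passed the adjusted test. After adjustment that test could hardly pass with so few libraries, so those settings say little. Depth limits Hells most, with 30 counts in 1 library. The cause of these changes was not tested.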
